A study of Mus musculus with 4 samples.

Results

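The Lrrc genes encode proteins named for their leucine-rich repeats, and carry a number after the letters Lrrc in their symbol. The protein-coding genes of GENCODE M21 with such a symbol were taken as the members, 65 of 21951 protein-coding genes. A read cluster belonged to a member when its centre lay in the gene span on the same strand, which gave 1179 of 337234 clusters in replicate 1 and 778 of 216354 clusters in replicate 2. Leucine-rich repeats are short motifs that stack into a curved scaffold on which other proteins dock, and genes with this fold serve in tasks as distant as dynein assembly in cilia, anion channels, synaptic adhesion and ubiquitin ligases. In the testis several Lrrc proteins are known from the sperm flagellum or from sperm ion channels. IGF2BP3 is an RNA-binding protein with RNA recognition motifs and KH domains that reads m6A-modified mRNA, and in mouse testes it is found mainly in germ cells.

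IGF2BP3-bound RNA was mapped by eCLIP-seq, in which protein and RNA are crosslinked by UV light and RNA fragments are sequenced after immunoprecipitation. Each replicate came from a pair of testes of wild-type C57BL/6 (C57BL/6J) mice, 8 weeks old, with germ cells and somatic cells together. The 4 libraries were an IP with the IGF2BP3 antibody and a size-matched input without antibody (SMInput) in each of 2 replicates. By the protocol the input is a small part of the lysate used for the IP, so the IP and SMInput of a replicate are libraries of the same testes. Each deposited cluster carries the log2(fold change) of IP over SMInput and the −log10(P value) of that comparison, and clusters with at least 2 in both values were called peaks.

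The library sizes that fit the deposited values were 5133438 IP and 8706391 SMInput reads in replicate 1, and 4637612 IP and 16696122 SMInput reads in replicate 2. With these sizes, the IP and SMInput reads of each peak of the Lrrc genes could be recovered from its pair of values. The median peak held 22 IP and 6 SMInput reads in replicate 1 and 12 IP and 7 SMInput reads in replicate 2. The 95% intervals given beside fold changes are exact intervals from these reads, and cover counting error only. Clusters that touch can share reads, so neighbouring peaks of a gene are not independent measurements.

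The tissue label was compared with marker genes. All 11 germ cell markers (Prm1, Prm2, Tnp1, Tnp2, Acrv1, Spaca1, Sycp1, Sycp3, Ddx4, Piwil1 and Ldhc) and all 8 Sertoli and Leydig cell markers (Sox9, Gata4, Wt1, Amh, Cyp17a1, Star, Hsd3b1 and Insl3) held clusters in both replicates. Of 6 markers of other tissues, Alb, Ins2, Myh6 and Umod held none, and the T cell gene Cd3e and the leukocyte gene Ptprc together held 5 clusters in replicate 1 and 2 in replicate 2, none of them a peak. Among the clusters of the germ cell markers, 20 of 353 were peaks in replicate 1 (5.67%) and 23 of 327 in replicate 2 (7.03%), and for the Sertoli and Leydig cell markers it was 3 of 177 (1.69%) and 10 of 137 (7.3%). The markers within a list differed. Ddx4 held 11 and 7 of the germ cell marker peaks, while Prm1, Prm2, Tnp1, Tnp2, Sycp3 and Piwil1 held none in either replicate. Sox9, Amh and Cyp17a1 also held none. Over all clusters, 4.92% were peaks in replicate 1 and 13.2% in replicate 2. The RNA came from whole testes, so fewer cells of a type and less RNA per cell cannot be told apart.

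Most Lrrc genes were seen in these libraries, and many of those seen carried a peak in both replicates. A cluster lay in 47 of the 65 genes (72.3%), against 66.4% of all protein-coding genes. Peaks numbered 97 of 1179 clusters in replicate 1, against 4.92% of all clusters, and 149 of 778 in replicate 2, against 13.2%. A peak was present in 25 genes in replicate 1, in 35 in replicate 2 and in 23 genes in both, which is 48.9% of the 47 genes with a cluster, against 33.0% of the 14580 protein-coding genes with a cluster. In 13 genes (27.7%) peaks of both replicates shared at least 1 base, against 14.0% of the protein-coding genes with a cluster. The Lrrc genes seen also held more clusters than a typical gene, with a median of 22 in replicate 1 and 14 in replicate 2, against 11 and 7 over all protein-coding genes, and the gene counts were not adjusted for this. The peaks themselves were not taller than elsewhere: their median log2(fold change) was 2.57 in replicate 1 and 2.80 in replicate 2, against 2.85 and 3.07 over all peaks.

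A few genes held much of the signal. Lrrc8b, Lrrc63 and Lrrc46 carried 47 of the 97 peaks in replicate 1 (48.5%), and these 3 genes were singled out after their values were seen. Their share was smaller in replicate 2, where 101 of the 149 peaks lay in other genes. Lrrc8b held 17 peaks in replicate 1 and 19 in replicate 2, Lrrc63 14 and 17, and Lrrc46 16 and 12. In the other 62 genes, 50 of 1039 clusters were peaks in replicate 1 (4.81%) and 101 of 682 in replicate 2 (14.8%). Leaving out the genes with most peaks lowers a share of peaks by construction, so these shares were not compared with those of all clusters.

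**Figure D1:**
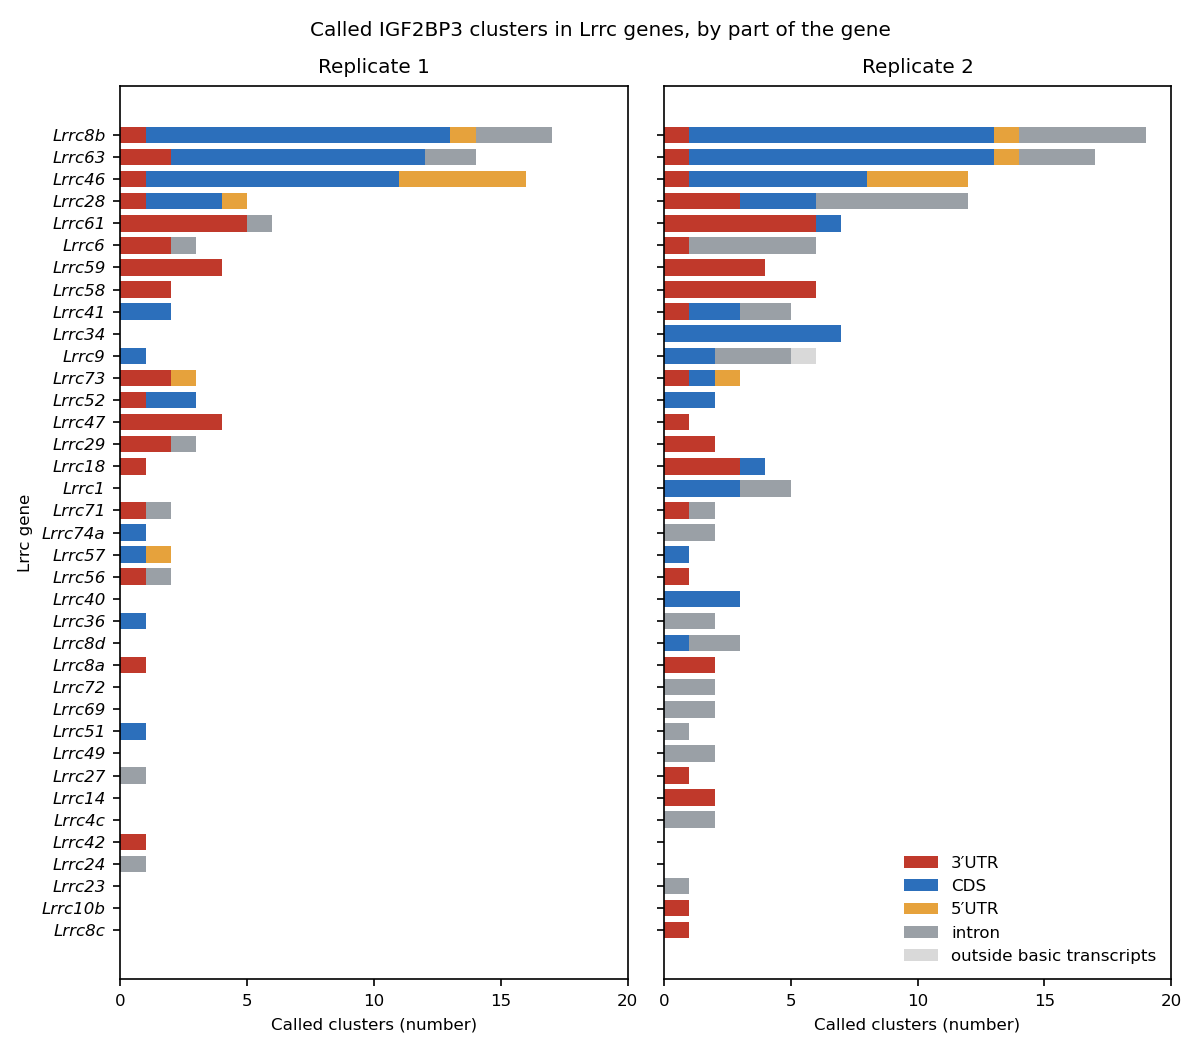
Number of peaks (x axis) in each Lrrc gene with at least 1 peak (y axis), in replicate 1 (left) and replicate 2 (right), with bars split by the part of the gene that held the centre of the peak. Lrrc8b, Lrrc63 and Lrrc46 have the longest bars over both replicates, with blue (CDS) segments of 10 to 12 peaks in replicate 1, while Lrrc58 and Lrrc59 have peaks in the 3′UTR alone.

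Coding sequence held more of the Lrrc peaks than it did elsewhere. In replicate 1, 44 of the 97 peaks lay in coding sequence (45.4%, 95% Wilson interval 35.8 to 55.3), against 29.5% of the peaks of all protein-coding genes. In replicate 2 it was 58 of 149 (38.9%, 31.5 to 46.9), against 21.2%. The Wilson intervals of these shares take peaks as independent, which neighbouring peaks of a gene are not. They therefore understate the uncertainty and do not test the Lrrc genes against all genes. The 3′UTR held 32 peaks in replicate 1 (33%, 24.4 to 42.8), against 44.8%, and 40 in replicate 2 (26.8%, 20.4 to 34.5), against 37.9%. The same 3 genes held much of it: Lrrc8b, Lrrc63 and Lrrc46 held 32 of the 44 coding peaks in replicate 1 (72.7%) and 31 of the 58 in replicate 2 (53.4%). Without them, coding sequence held 12 of 50 peaks in replicate 1 and 27 of 101 in replicate 2. The 3′UTR then held 56% and 36.6%. Leaving out genes with many coding peaks moves both shares by construction, so these were not compared with those of all genes. With thresholds of 3 for both values, the 3′UTR held 12 of 25 Lrrc peaks in each replicate (48%). The shares of all protein-coding genes given here are at thresholds of 2 and were not computed at 3, so this share was not compared with them.

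The higher coding share came with a higher rate of peaks among coding clusters. Of the coding clusters of the Lrrc genes, 44 of 375 were peaks in replicate 1 (11.7%), against 5.28% over all protein-coding genes, and 58 of 314 in replicate 2 (18.5%), against 7.97%. Without Lrrc8b, Lrrc63 and Lrrc46 it was 12 of 309 (3.88%) and 27 of 262 (10.3%), shares that leaving out these genes lowers by construction. Clusters in 3′UTRs were peaks at a rate closer to that of other genes, 32 of 134 in replicate 1 (23.9%), against 19.4%, and 40 of 116 in replicate 2 (34.5%), against 34.5%. Intronic clusters were peaks in 1.91% of cases in replicate 1, against 1.92%, and in 14% in replicate 2, against 10.7%. In the 5′UTR, 9 of 37 clusters were peaks in replicate 1 (24.3%), against 5.08%, and 7 of 35 in replicate 2 (20%), against 8.59%, and Lrrc46 held 5 and 4 of these peaks.

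**Figure D2:**
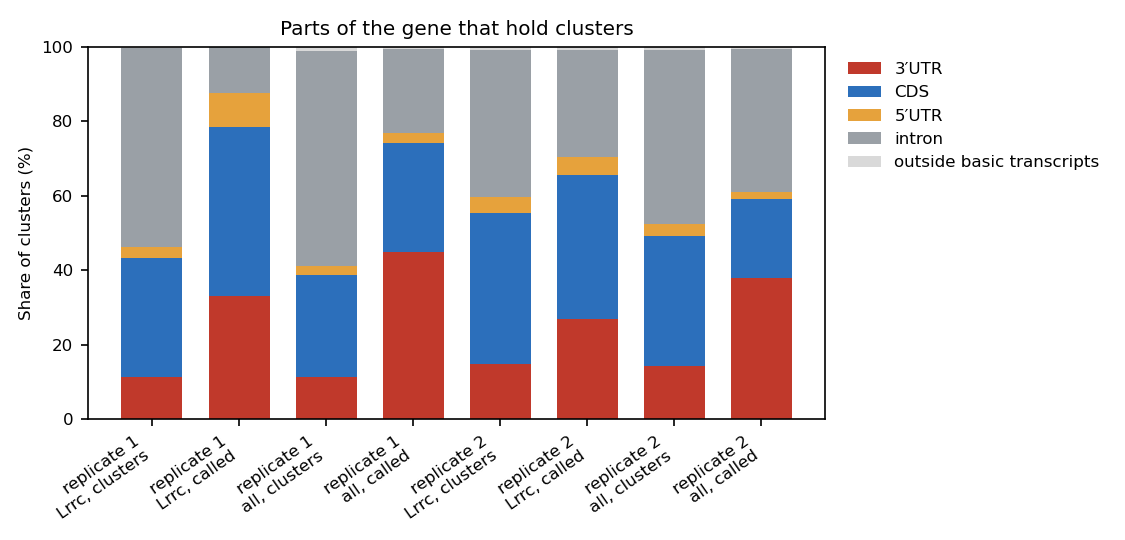
Share of clusters (y axis, %) by the part of the gene that holds their centre, for all clusters and for peaks (called), in the Lrrc genes (Lrrc) and in all protein-coding genes (all) of each replicate. Coding sequence takes 45.4% and 38.9% of the Lrrc peaks in replicates 1 and 2, and 29.5% and 21.2% of all peaks.

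Many of the Lrrc peaks that recurred between the replicates were those of Lrrc8b, Lrrc63 and Lrrc46. Of the 97 peaks of replicate 1, 55 overlapped a peak of replicate 2 (56.7%), against 32.9% of the peaks of all protein-coding genes, 16 overlapped a cluster below the thresholds and 26 overlapped no cluster. Of the 149 peaks of replicate 2, 47 overlapped a peak of replicate 1 (31.5%), against 18.4%, 43 a cluster below the thresholds and 59 no cluster. Outside Lrrc8b, Lrrc63 and Lrrc46, 16 of 50 peaks of replicate 1 (32%) and 16 of 101 peaks of replicate 2 (15.8%) overlapped a peak of the other replicate. These 3 genes were left out for their many peaks, so the shares of the rest were not compared with those of all protein-coding genes. Of the coding peaks, 35 of 44 in replicate 1 (79.5%), against 35.8%, and 29 of 58 in replicate 2 (50%), against 27.5%, overlapped a peak of the other replicate. Outside these 3 genes it was 6 of 12 coding peaks (50%) and 6 of 27 (22.2%). Peaks in 3′UTRs recurred in 12 of 32 cases (37.5%), against 45.8%, and 12 of 40 (30%), against 30.3%. Few intronic peaks recurred, 2 of 12 (16.7%), against 3.51%, and 1 of 43 (2.33%), against 1.23%. All of these lay at a single site of Lrrc8b (chr5:105453639-105453842). Over 470 pairs of overlapping clusters in 35 Lrrc genes, the log2(fold change) of the replicates had a Pearson r of 0.68 and a Spearman rho of 0.68. Without Lrrc8b, Lrrc63 and Lrrc46 the values were 0.61 and 0.59 over 366 pairs, and pairs of a gene share its RNA level and can share reads.

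Much of the intronic signal of replicate 2 rested on a handful of reads. Of its 43 intronic peaks, 40 had fewer than 10 IP reads. The smallest evidence that reached both thresholds in replicate 2 was 4 IP reads and 1 SMInput read, a log2(fold change) of 3.85 with an interval of 0.51 to 9.47, and 19 Lrrc peaks, 18 of them in introns, had exactly these reads. In replicate 1 it was 7 IP reads and 1 SMInput read (log2(fold change) 3.57, 0.61 to 9.06), seen in 2 peaks. No cluster of the tables had fewer than 1 SMInput read, so in the 8 peaks of replicate 1 and the 28 peaks of replicate 2 with 1 SMInput read the fold change depends on that lowest value. Fewer than 10 IP reads stood behind every replicate 2 peak of 14 genes, Lrrc4c, Lrrc8d, Lrrc10b, Lrrc14, Lrrc23, Lrrc29, Lrrc36, Lrrc40, Lrrc49, Lrrc51, Lrrc57, Lrrc69, Lrrc72 and Lrrc74a, and behind every replicate 1 peak of Lrrc9 and Lrrc18.

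Genes of the cilium, the flagellum and the testis were the largest role group. Clusters lay in 14 of its 15 genes, and 41 of 479 clusters were peaks in replicate 1 (8.56%) and 63 of 336 in replicate 2 (18.8%), against 4.92% and 13.2% of all clusters. Lrrc46 and Lrrc63 held 30 of the 41 and 29 of the 63 peaks. Without them, 11 of 410 clusters (2.68%) and 34 of 285 (11.9%) were peaks, shares that leaving out these genes lowers by construction. A peak was present in both replicates in 9 of the 14 genes, against 33.0% of the protein-coding genes with a cluster: Lrrc46, Lrrc63, Lrrc6, Lrrc9, Lrrc18, Lrrc71, Lrrc74a, Lrrc56 and Lrrc51. With at least 10 IP reads asked of a peak, Lrrc9, Lrrc18, Lrrc51 and Lrrc74a were no longer among them. Peaks overlapped between the replicates in 4 genes, Lrrc46, Lrrc63, Lrrc6 and Lrrc56, against 14.0% of the protein-coding genes with a cluster. Coding sequence held 23 of the group's peaks in replicate 1 and 29 in replicate 2, and introns 5 and 20.

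Lrrc46, which mice need to build the sperm flagellum, carried peaks in exons at both ends of its mRNA. Of its 23 clusters in replicate 1 and 18 in replicate 2, 16 and 12 were peaks, and each of these overlapped a peak of the other replicate. The overlapping peaks formed 7 sites on chromosome 11, in exons 1, 2, 3, 4, 5 and 8 of 8. The site with the most reads lay over the 5′UTR (chr11:97041084-97041330, minus strand, GRCm38/mm10) and held 6 peaks in replicate 1 and 5 in replicate 2. Its highest log2(fold change) was 3.54 in replicate 1 (130 IP and 19 SMInput reads, interval 2.84 to 4.31) and 3.31 in replicate 2 (116 and 42 reads, 2.79 to 3.86). Its highest −log10(P value) was 46.2 in replicate 1 and 72.5 in replicate 2, the highest of all Lrrc peaks in each replicate, in neighbouring peaks with 209 and 195 IP reads. The coding site in exon 3 (chr11:97038772-97038880) was next in height in replicate 1, at 3.12 (72 and 14 reads, 2.29 to 4.07), and had 3.01 in replicate 2 (92 and 41 reads, 2.47 to 3.58). In exon 8 the coding site at chr11:97034694-97034943 reached 2.33 in replicate 1 (101 and 34 reads, 1.76 to 2.94) and 3.21 in replicate 2 (113 and 44 reads, 2.69 to 3.75). The sites of exons 2, 4 and 5 and of the 3′UTR lay between 2.01 and 2.59 in both replicates. Exons 6 and 7 held clusters but no peak in either replicate. The highest fold change of Lrrc46 thus lay in the 5′UTR in each replicate, but its interval overlapped those of the coding sites in exons 3 and 8. The intervals of the replicates also overlapped at each site named here.

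The coding bases that peaks of both replicates shared in exons 3 and 8 of Lrrc46 are shown because they had the gene's highest coding fold changes in replicate 2. They were read from the RefSeq GRCm38 genome on the minus strand, 5′ to 3′, with the searched motifs GGAC (a core of the m6A consensus) and CACA in capitals. The stretches are chr11:97038773-97038880 and chr11:97034799-97034933.
Lrrc46 exon 3: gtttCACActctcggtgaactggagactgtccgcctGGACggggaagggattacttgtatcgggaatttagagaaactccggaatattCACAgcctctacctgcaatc
Lrrc46 exon 8: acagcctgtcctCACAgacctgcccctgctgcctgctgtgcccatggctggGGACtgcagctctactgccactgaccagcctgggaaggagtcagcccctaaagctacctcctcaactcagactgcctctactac

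Lrrc63, a testis gene of little known function, carried sites in coding sequence from exon 3 to exon 10. It held 46 clusters with 14 peaks in replicate 1 and 33 clusters with 17 peaks in replicate 2, and 10 peaks of each replicate overlapped in 7 sites. The tallest site of replicate 1, and the first by the smaller value of the replicates, spanned the end of the coding sequence and the start of the 3′UTR in exon 10 (chr14:75084631-75084958, minus strand). Its highest value was 4.35 in replicate 1, from 12 IP reads and 1 SMInput read (interval 1.59 to 9.76), and 2.77 in replicate 2, from 19 and 10 reads (1.60 to 4.04). Exon 9 held 3 neighbouring sites, of which the highest in replicate 2 (chr14:75086253-75086334) reached 2.46 in replicate 1 (13 and 4 reads, 0.77 to 4.54) and 3.85 in replicate 2 (12 and 3 reads, 1.96 to 6.31). The other 2 exon 9 sites and those of exons 3 and 7 lay between 2.06 and 2.96. The peaks of Lrrc63 had at most 43 IP reads in replicate 1 and 32 in replicate 2, well below the depth of Lrrc46.

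Lrrc6, needed for the assembly of dynein arms before they enter the cilium, was bound in its 3′UTR. It held 51 clusters with 3 peaks in replicate 1 and 33 with 6 in replicate 2. The shared site (chr15:66380312-66380435, minus strand) had a log2(fold change) of 2.44 in replicate 1 (16 and 5 reads, 0.93 to 4.24) and 2.07 in replicate 2 (14 and 12 reads, 0.85 to 3.31). A neighbouring 3′UTR peak of replicate 1 was higher, at 3.50 (20 and 3 reads, 1.75 to 5.89), and overlapped no cluster of replicate 2. The remaining 5 peaks of replicate 2 were intronic. Lrrc56, mutated in ciliary disease, held 25 clusters with 2 peaks and 15 with 1, and its 3′UTR site (chr7:141209690-141209846, plus strand) had 2.12 in replicate 1 (18 and 7 reads, 0.80 to 3.63) and 2.02 in replicate 2 (26 and 23 reads, 1.16 to 2.90). Both genes thus had modest, repeated 3′UTR enrichment.

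In the other genes of this group with peaks in both replicates, no peak met a peak of the other replicate. Lrrc9 was rich in clusters, 86 in replicate 1 and 64 in replicate 2, but held 1 and 6 peaks. Lrrc18, a testis-expressed gene, had 1 peak among 22 clusters in replicate 1, a 3′UTR peak at 3.93 with 9 IP reads and 1 SMInput read, and 4 among 14 in replicate 2, where a coding peak with 31 IP reads stood at 2.55 (1.68 to 3.46). Of its 4 peaks in replicate 2, 3 overlapped clusters of replicate 1 below the thresholds, with values of 1.76 to 3.08. At the coding peak, replicate 1 held a cluster of 53 IP and 24 SMInput reads at 1.91 (1.18 to 2.67), just under the threshold, with a −log10(P value) of 7.79. Lrrc71 had 2 peaks in each replicate among 30 and 19 clusters, Lrrc74a 1 and 2 among 28 and 20, and Lrrc51 1 in each among 15 and 13.

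Lrrc34, Lrrc49, Lrrc69 and Lrrc23 had peaks in replicate 2 alone. Lrrc34, a nucleolar protein of pluripotent stem cells, was singled out after its values were seen: it had 7 peaks in replicate 2, all in coding sequence from exon 3 to exon 11, with log2(fold change) from 2.01 to 2.61 and up to 43 IP reads. In replicate 1 it held 32 clusters and no peak, and the clusters at the same bases lay between 0.28 and 1.64. At the exon 4 site the values were 2.46 in replicate 2 (26 and 17 reads, 1.52 to 3.43) and 0.56 in replicate 1 (13 and 15 reads, -0.64 to 1.73), with intervals that overlapped between 1.52 and 1.73. Of the genes with peaks in 1 replicate alone, Lrrc34 had the most, at bases where the other replicate stayed below the thresholds. Lrrc49, a subunit of the tubulin polyglutamylase complex, and Lrrc69 had 2 intronic peaks each, and Lrrc23, a radial spoke protein of the sperm flagellum, had 1 in an intron. Lrrc43 held 24 and 22 clusters with no peak, and Lrrc74b held no cluster.

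Among the channel genes, most peaks were those of Lrrc8b. The LRRC8 proteins form the volume-regulated anion channel, with LRRC8A as the obligatory subunit. Of the 5 genes, Lrrc8a and Lrrc8b had peaks in both replicates, Lrrc8c and Lrrc8d in replicate 2 alone, and Lrrc8e held no cluster. The group held 18 peaks among 173 clusters in replicate 1 (10.4%) and 25 among 100 in replicate 2 (25%), against 4.92% and 13.2% of all clusters, and 17 and 19 of them were in Lrrc8b. Without Lrrc8b, 1 of 102 clusters (0.98%) and 6 of 55 (10.9%) were peaks, shares that leaving out this gene lowers by construction.

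Lrrc8b had 71 clusters in replicate 1 and 45 in replicate 2, and its 13 and 9 overlapping peaks formed 6 sites. The deepest lay early in the coding sequence in exon 4 (chr5:105480143-105480339, plus strand), at 3.55 in replicate 1 (117 and 17 reads, 2.80 to 4.37) and 2.88 in replicate 2 (121 and 59 reads, 2.42 to 3.36). The tallest in replicate 2 lay near the end of the coding sequence in exon 5 (chr5:105485830-105486070), at 3.24 in replicate 1 (39 and 7 reads, 2.06 to 4.65) and 3.02 in replicate 2 (45 and 20 reads, 2.23 to 3.86). Further coding sites in exon 4 reached 2.47 and 2.20 (chr5:105479979-105480131) and 2.65 and 2.25 (chr5:105480598-105480644), and a site at the start of the 3′UTR 2.31 and 2.06. The remaining site (chr5:105453639-105453842) reached 2.59 in replicate 1 (39 and 11 reads, 1.59 to 3.70) and 2.99 in replicate 2 (42 and 19 reads, 2.18 to 3.86), in an intron of the GENCODE transcripts. A computed RefSeq transcript of Lrrc8b has its first exon there (chr5:105453381-105454109). The long 3′UTR of Lrrc8b, 3999 bases, held 1 peak in each replicate, against 12 in each replicate in its coding sequence of 2412 bases.

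**Figure D3:**
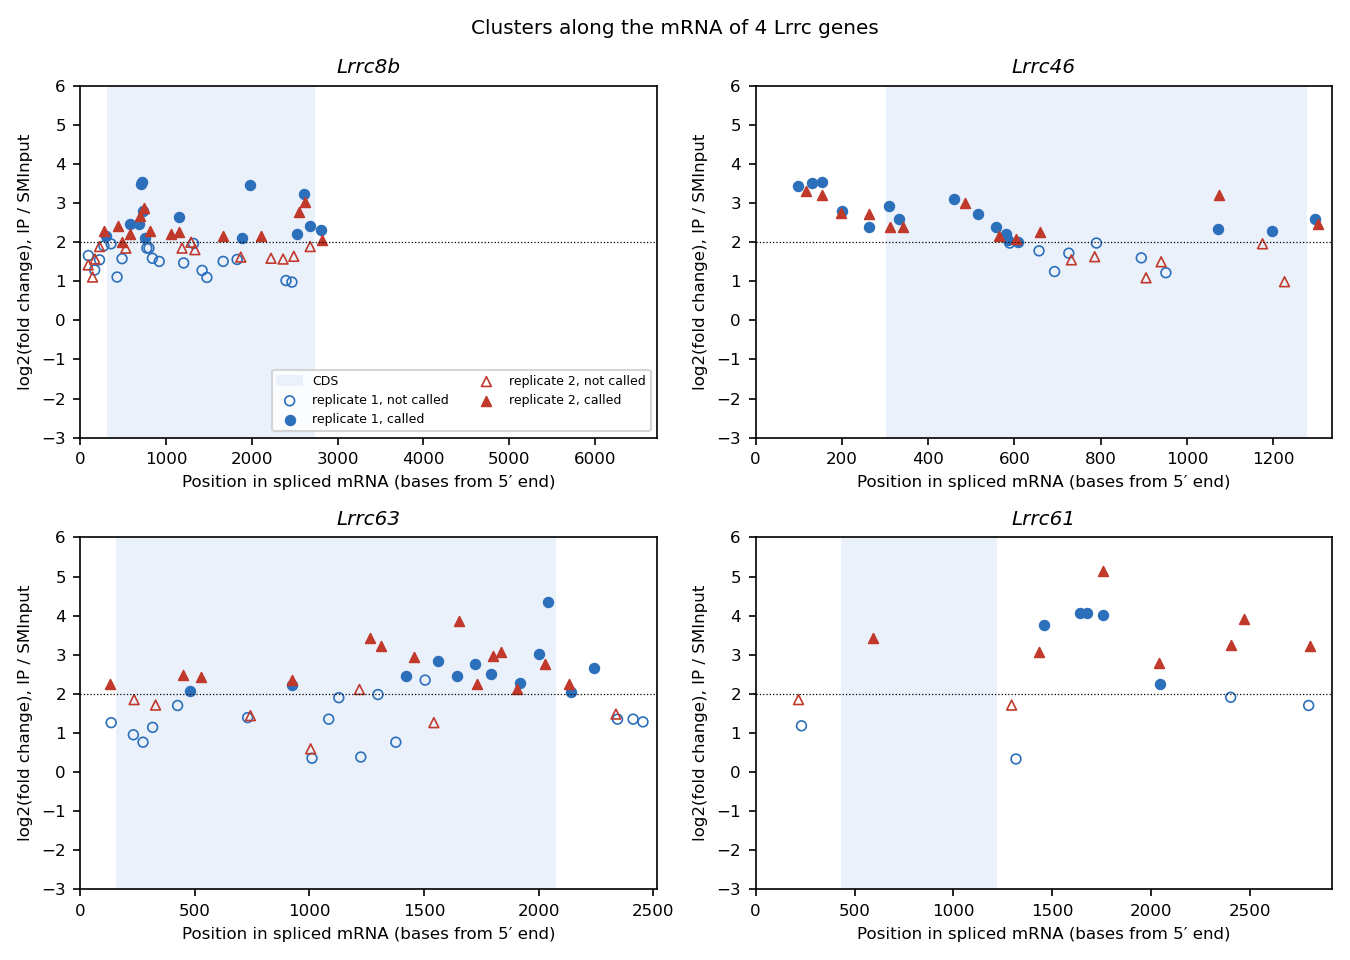
Exonic clusters of Lrrc8b, Lrrc46, Lrrc63 and Lrrc61 by position in the spliced mRNA (x axis, bases from the 5′ end) and log2(fold change) of IP over SMInput (y axis), with circles for replicate 1, triangles for replicate 2, filled symbols for peaks (called), a shaded coding sequence and a dotted line at the threshold of 2. Peaks of Lrrc8b, Lrrc46 and Lrrc63 lie mostly over the coding sequence and the 5′UTR, and those of Lrrc61 over its 3′UTR, up to 5.15 in replicate 2.

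The paralogs make it possible to look at the same stretch of a related protein's mRNA. Within the exon 5 site of Lrrc8b, the bases shared by peaks of both replicates fall in codons 737 to 778, and the 42 codons that align with them in each paralog are shown to display how far the mRNAs differ where Lrrc8b was enriched. Of the 126 bases, 77 were the same in Lrrc8a (61.1%), 68 in Lrrc8c (54%), 68 in Lrrc8d (54%) and 75 in Lrrc8e (59.5%). Lrrc8b held 3 clusters over these codons in replicate 1, all peaks, and 4 in replicate 2 with 2 peaks, and none of the paralogs held a cluster at its counterpart in either replicate. The paralogs had few reads anywhere. The most SMInput reads of a cluster in replicates 1 and 2 were 46 and 69 in Lrrc8b, 5 and 14 in Lrrc8a, 5 and 8 in Lrrc8c, and 12 and 10 in Lrrc8d. Lrrc8e held no cluster. An absent cluster thus does not tell an unbound RNA from a scarce one, and a link to the sequence differences was not tested. The sequences are from the RefSeq GRCm38 genome, plus strand, 5′ to 3′, at chr5:105485872-105485997 (Lrrc8b), chr2:30261917-30262042 (Lrrc8a), chr5:105608581-105608706 (Lrrc8c), chr5:105814087-105814212 (Lrrc8d) and chr8:4235973-4236098 (Lrrc8e), and capitals mark bases that differ from Lrrc8b.
Lrrc8b: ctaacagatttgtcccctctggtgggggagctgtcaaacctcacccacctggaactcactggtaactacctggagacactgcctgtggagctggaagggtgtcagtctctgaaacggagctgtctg
Lrrc8a: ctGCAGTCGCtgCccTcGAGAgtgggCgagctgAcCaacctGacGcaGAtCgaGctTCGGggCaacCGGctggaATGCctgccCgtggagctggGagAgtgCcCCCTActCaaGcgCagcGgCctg
Lrrc8c: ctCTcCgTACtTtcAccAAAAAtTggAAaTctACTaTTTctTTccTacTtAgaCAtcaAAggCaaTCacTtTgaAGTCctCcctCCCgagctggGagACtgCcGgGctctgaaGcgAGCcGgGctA
Lrrc8d: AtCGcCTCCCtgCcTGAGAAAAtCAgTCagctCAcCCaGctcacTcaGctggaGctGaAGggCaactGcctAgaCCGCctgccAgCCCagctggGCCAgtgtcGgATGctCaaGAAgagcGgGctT
Lrrc8e: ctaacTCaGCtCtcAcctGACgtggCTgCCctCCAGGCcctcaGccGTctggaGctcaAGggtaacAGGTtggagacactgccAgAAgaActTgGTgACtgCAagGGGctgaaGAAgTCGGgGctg

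The peaks of Lrrc8a lay in its 3′UTR instead, and rested on few reads. Its shared site (chr2:30263459-30263610, plus strand) had 2.22 in replicate 1 (11 and 4 reads, 0.47 to 4.33) and 3.07 in replicate 2 (14 and 6 reads, 1.60 to 4.74). It held 20 clusters with 1 peak in replicate 1 and 7 with 2 peaks in replicate 2. Each of these clusters also lay in the same-strand gene Gm28035, to which the reads could equally be assigned. With P values adjusted over all clusters Lrrc8a had no peak in replicate 1, and so neither a shared site nor a peak in both replicates. Lrrc8c had 1 peak, in the 3′UTR, among 16 clusters of replicate 2 and none among 27 of replicate 1. Lrrc8d had 3 among 32 and none among 55.

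The potassium channel gene Lrrc52 had few clusters, with a tall site in its first exon. LRRC52 is an auxiliary subunit of the sperm potassium channel SLO3, and LRRC26, LRRC38 and LRRC55 serve a related channel, BK. Lrrc52 held 6 clusters in replicate 1, of which 3 were peaks, and 4 in replicate 2, of which 2 were. Its shared site lay in the coding sequence of exon 1 (chr1:167466207-167466427, minus strand), with a highest value of 3.70 in replicate 1 (23 and 3 reads, 1.97 to 6.08; −log10(P value) 7.06) and 4.55 in replicate 2 (26 and 4 reads, 3.02 to 6.53; 13.2). Among the 13 genes with a shared site, it ranked next to Lrrc61 by the smaller of the replicates' highest fold changes at such a site. Lrrc26, Lrrc38 and Lrrc55 held no cluster. The shared coding bases (chr1:167466297-167466396) are shown because this short stretch held the highest coding fold change of the Lrrc genes in replicate 2, with GAACA and the overlapping copies of CACA in capitals, on the minus strand.
Lrrc52 exon 1: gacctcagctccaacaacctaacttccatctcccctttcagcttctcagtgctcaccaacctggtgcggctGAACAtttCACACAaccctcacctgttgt

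The list of genes of ubiquitin ligases, ribosomes, centrosomes and other housekeeping roles, which also holds genes of unknown function such as Lrrc61, had most of its peaks in 3′UTRs. Clusters lay in all 13 genes, and 29 of 290 clusters were peaks in replicate 1 (10%) and 43 of 203 in replicate 2 (21.2%), against 4.92% and 13.2% of all clusters. Of these peaks, 19 (65.5%) and 25 (58.1%) lay in 3′UTRs, against 44.8% and 37.9% of the peaks of all protein-coding genes, and 6 and 10 lay in coding sequence. Lrrc61 held 5 and 6 of those in 3′UTRs. A peak was present in both replicates in 8 of the 13 genes, against 33.0% of the protein-coding genes with a cluster: Lrrc61, Lrrc28, Lrrc59, Lrrc58, Lrrc41, Lrrc47, Lrrc29 and Lrrc57. With at least 10 IP reads asked of a peak, Lrrc29 and Lrrc57 were no longer among them. Peaks overlapped between the replicates in 5 genes, Lrrc61, Lrrc47, Lrrc28, Lrrc59 and Lrrc41, against 14.0%.

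Lrrc61 had the highest fold change repeated in both replicates of all Lrrc genes. It held 13 clusters with 6 peaks in replicate 1 and 9 with 7 in replicate 2, and 5 and 6 of these lay in its 3′UTR of 1698 bases. The site with the most reads (chr6:48569510-48569618, plus strand) had a log2(fold change) of 4.02 in replicate 1 (67 and 7 reads, 2.90 to 5.39; −log10(P value) 20.3) and 5.15 in replicate 2 (59 and 6 reads, 3.94 to 6.65; 39.9). A site before it in the 3′UTR (chr6:48569222-48569290) had 3.76 (16 and 2 reads, 1.67 to 6.93) and 3.07 (21 and 9 reads, 1.88 to 4.38), and a site behind it (chr6:48569823-48569880) 2.24 (25 and 9 reads, 1.09 to 3.52) and 2.80 (27 and 14 reads, 1.81 to 3.84). In replicate 2, 3 more peaks stood farther along the 3′UTR with up to 3.92, where replicate 1 had no peak. In replicate 1, 2 touching peaks just before that site (chr6:48569423-48569500) had 4.08 each (20 and 2 reads, 2.04 to 7.23), above its 4.02, and overlapped no cluster of replicate 2. At chr6:48569510-48569618 the fold change of each replicate lay within the interval of the other, so a difference was not detectable at this depth.

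The other 3′UTR sites of this group were lower. Lrrc47 held 11 clusters with 4 peaks, all in the 3′UTR, in replicate 1 and 9 with 1 in replicate 2, and its shared site (chr4:154021362-154021426, plus strand) had 2.62 (29 and 8 reads, 1.46 to 3.96) and 2.85 (20 and 10 reads, 1.69 to 4.11). Lrrc59, a ribosome-binding protein of the endoplasmic reticulum, held 4 peaks in each replicate among 26 and 18 clusters, all in the 3′UTR, but peaks overlapped at 1 place (chr11:94643879-94643932, plus strand), with 3.08 (15 and 3 reads, 1.26 to 5.51) and 2.03 (17 and 15 reads, 0.94 to 3.13). Its highest peaks stood elsewhere, at 3.88 in replicate 1 (26 and 3 reads) and 3.43 in replicate 2 (15 and 5 reads). Lrrc58, whose 3′UTR takes up 7396 of 8604 bases of its mRNA, held 2 peaks among 25 clusters and 6 among 23, each in the 3′UTR, and none overlapped a peak of the other replicate. Of the 6 Lrrc58 peaks of replicate 2, 5 overlapped clusters of replicate 1 below the thresholds, with values of 0.66 to 1.76. The long 3′UTRs of Lrrc59 and Lrrc58 thus held peaks in both replicates, most of which met no peak of the other replicate.

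The middle 30 bases that peaks of both replicates shared in Lrrc61 (site with the most reads), Lrrc47 and Lrrc59 are shown because they lie in the repeated 3′UTR sites of this group. They are from the RefSeq GRCm38 genome, plus strand, 5′ to 3′, at chr6:48569551-48569580, chr4:154021378-154021407 and chr11:94643885-94643914, with AAACC in capitals. Those of Lrrc61 and Lrrc47 held none of the motifs searched.
Lrrc61: acttgccctacctgctgcttcctggtacta
Lrrc47: ctgtctccccccagttcctgctgttccctc
Lrrc59: tgtatgtcatAAACCctttctttcattcct

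Lrrc28 and Lrrc41 had their shared sites in coding sequence. Lrrc28 had the most clusters of any member in replicate 1, 89, with 5 peaks, and 45 with 12 peaks in replicate 2. Its exon 9 site (chr7:67529586-67529739, minus strand) had 2.20 in replicate 1 (27 and 10 reads, 1.10 to 3.41) and 2.81 in replicate 2 (35 and 18 reads, 1.95 to 3.71), and its exon 8 site (chr7:67531615-67531773) 2.44 (16 and 5 reads, 0.93 to 4.24) and 2.04 (16 and 14 reads, 0.91 to 3.19). Of its 12 peaks in replicate 2, 6 were intronic with at most 6 IP reads. Lrrc41, a substrate receptor of cullin ubiquitin ligases, held 31 clusters with 2 peaks and 25 with 5, and ranked last of the 13 genes with a shared site, at 2.50 and 2.00 from 10 IP reads in each replicate. That site was lost with adjusted P values. The highest values of the shared sites of both genes thus lay between 2.00 and 2.81.

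Lrrc29, an F-box protein gene, had 3 and 2 peaks among 22 and 18 clusters, and Lrrc57 2 and 1 among 8 and 10, with no overlap between replicates. Lrrc42 had 1 peak, in the 3′UTR, in replicate 1 alone (2.67, 15 IP reads), and the cluster at the same place in replicate 2 stood at 1.96, just under the threshold. In replicate 2 alone, Lrrc40 had 3 coding peaks and Lrrc14 2 peaks in its 3′UTR. Lrrc20 held 8 and 3 clusters and the centrosomal linker gene Lrrc45 1 in each replicate, none of them peaks.

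Genes of neuronal adhesion, scaffolds and cell polarity had peaks mostly in replicate 2. Clusters lay in 5 of 9 genes, and Lrrc3, Lrrc3b, Lrrc3c and Lrrc4b held none. Peaks were 1 of 89 clusters in replicate 1 (1.12%), against 4.92% of all clusters, and 7 of 44 in replicate 2 (15.9%), against 13.2%. No gene had a peak in both, against 33.0% of the protein-coding genes with a cluster. Lrrc1, which encodes a relative of the polarity protein Scribble, held 63 clusters with no peak in replicate 1 and 36 with 5 peaks in replicate 2, of which 3 were coding and the highest of those stood at 3.59 (10 and 3 reads, 1.63 to 6.08). Lrrc4c, a netrin-G ligand of synapses, had 2 peaks in introns in replicate 2, each from 4 IP reads. Lrrc24 had 1 peak in replicate 1, at 3.08 from 10 IP reads, in an intron that lies in another same-strand gene, C030006K11Rik. Lrrc4 and the synaptic scaffold gene Lrrc7 held 5 and 3 clusters in replicate 1, none a peak.

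Genes known from the heart, skeletal muscle, immune cells, bone and other tissues outside the testis held few clusters. A cluster lay in 4 of 13 genes, against 66.4% of all protein-coding genes. The other 9 held no cluster: Lrrc10, Lrrc14b, Lrrc15, Lrrc19, Lrrc30, Lrrc31, Lrrc32, Lrrc39 and Lrrc66. Among them are the heart muscle gene Lrrc10 and Lrrc32, which anchors latent TGF-beta on regulatory T cells. Lrrc2, Lrrc17 and Lrrc25 held 2 clusters each in replicate 1, none a peak. Lrrc10b had the group's single peak, in its 3′UTR in replicate 2, from 5 IP reads. Peaks were thus 0 of 10 clusters in replicate 1, against 4.92% of all clusters, and 1 of 2 in replicate 2, against 13.2%. These are too few clusters to compare. An absent cluster does not tell an RNA left unbound by IGF2BP3 from an RNA not made in the testis. Lrrc53, on the list of this group, was not analysed here.

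The 6 genes without an assigned role held 5 peaks among 132 clusters in replicate 1 (3.79%) and 8 among 89 in replicate 2 (8.99%), against 4.92% and 13.2% of all clusters. Lrrc73 stood out among them, with 3 peaks among 7 clusters in each replicate and sites at both ends of its mRNA. Its 5′UTR site (chr17:46254237-46254360, plus strand) had 2.12 in replicate 1 (41 and 16 reads, 1.25 to 3.05) and 2.46 in replicate 2 (23 and 15 reads, 1.46 to 3.51). Its 3′UTR site (chr17:46257036-46257139) had 3.08 (20 and 4 reads, 1.51 to 5.09) and 2.31 (11 and 8 reads, 0.86 to 3.83). Lrrc27 had 1 peak in each replicate among 48 and 25 clusters, and Lrrc36 1 and 2 among 49 and 44, with no overlap. Lrrc72 had 2 intronic peaks in replicate 2, and Lrrc75a and Lrrc75b held 6 and 2 clusters in replicate 1 without a peak.

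Genes with many clusters did not always have many peaks. The 5 members with most clusters were Lrrc28, Lrrc9, Lrrc8b, Lrrc1 and Lrrc49 in replicate 1, with 372 of the 1179 clusters (31.6%), and Lrrc9, Lrrc8b, Lrrc28, Lrrc36 and Lrrc49 in replicate 2, with 237 of 778 (30.5%). Lrrc8b also had the most peaks in both replicates, and Lrrc28 had 12 in replicate 2. Lrrc1 and Lrrc49, each with 63 clusters in replicate 1, had no peak there, while Lrrc46 had 16 peaks among 23 clusters and Lrrc61 6 among 13.

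The peaks were searched for short motifs in windows of 100 bases around their centre, on the RNA strand. GGAC, a core of the m6A consensus DRACH, was found in 11 of 32 3′UTR peaks of the Lrrc genes in replicate 1 (34.4%) and 14 of 40 in replicate 2 (35%), against 24.9% and 23.4% of all 3′UTR peaks. In coding peaks it was no more frequent than elsewhere, 13 of 44 (29.5%) and 14 of 58 (24.1%), against 29.6% and 29.5%. DRACH itself, in most windows of this length, was found in 40 of 44 (90.9%) and 52 of 58 (89.7%) coding peaks, against 84.7% and 84.1%, and in 24 of 32 (75%) and 34 of 40 (85%) 3′UTR peaks, against 84.3% and 83.4%. In coding clusters of the Lrrc genes that were not peaks, DRACH was found in 89.4% and 87.5% and GGAC in 33.2% and 28.9%. In their 3′UTR clusters that were not peaks, DRACH was found in 79.4% and 77.6% and GGAC in 21.6% and 25%. CACA was found in 15 of 32 (46.9%) and 18 of 40 (45%) 3′UTR peaks, against 38.3% and 35.9%, and in 16 of 44 (36.4%) and 13 of 58 (22.4%) coding peaks, against 39.3% and 37.8%. The motif GAACA was found in 5 of 44 coding peaks in replicate 1 (11.4%) and 9 of 58 in replicate 2 (15.5%), against 10.5% and 10.7%. The motif AAACC was found in 7 (15.9%) and 6 (10.3%), against 9.63% and 8.43%. In 3′UTR peaks GAACA was found in 2 of 32 (6.25%) and 0 of 40, against 8.27% and 7.74%, and the motif AAACC in 2 of 32 (6.25%) and 2 of 40 (5%), against 8.71% and 8.46%. These are shares of few peaks, several of them neighbours in a single gene.

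The coding peaks were also placed against the codons of the repeat that gives the genes their name. Matches to the 11-residue repeat consensus were found in the proteins of 63 members. Of the peaks centred in the coding sequence of each gene's longest coding transcript, 5 of 46 in replicate 1 (10.9%) and 7 of 59 in replicate 2 (11.9%) had their centre in codons of such a match. These codons made up 6.9% and 8.08% of the coding bases of the genes with such peaks. In Lrrc8b, with 8 matches over 11% of its coding bases, none of the 12 coding peaks of either replicate had its centre in one. Peaks can still cover a match without being centred in it, which was not counted. The exon 5 site of Lrrc8b is such a case, since its shared bases shown above encode a match.

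Other genes with leucine-rich repeats but without an Lrrc number were near the share of all clusters. Of 45 such genes 34 held a cluster, and 35 of 1040 clusters were peaks in replicate 1 (3.37%) and 83 of 670 in replicate 2 (12.4%), against 4.92% and 13.2% of all clusters. A peak was present in both replicates in 12 of the 34 genes, against 33.0% of the protein-coding genes with a cluster, and peaks overlapped in 4, against 14.0%: Tcte1, Carmil1, Lrguk and Lrch4. Tcte1, of the nexin-dynein regulatory complex of the sperm flagellum, had 8 peaks in each replicate with up to 3.01 and 3.17, and Carmil1, a regulator of actin capping protein, 6 and 17.

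Few clusters of the Lrrc genes could belong elsewhere. In replicate 1, 29 clusters with 2 peaks, and in replicate 2, 17 clusters with 4 peaks, also lay in another same-strand gene, within Lrrc8a, Lrrc24, Lrrc58, Lrrc71 or Lrrc28. On the opposite strand of the members' spans there were 88 clusters with no peak in replicate 1 and 58 with 4 peaks in replicate 2, inside Lrrc4, Lrrc17, Lrrc24 and Lrrc41.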

How the data were processed

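The deposited tables list, for each cluster of reads, the −log10 of the P value of IP against SMInput reads (chi-square test with Yates' correction, Fisher's exact test for low numbers) and the log2 fold change, both as the authors computed them. The authors trimmed reads with cutadapt, removed ribosomal RNA reads with Bowtie2, mapped to mm10 with STAR, used molecular identifiers to drop duplicates, and took clusters from Clipper. All 4 libraries were used. The members and gene lists were chosen with earlier results of these data known, and 1 interval of chromosome 11 is not reported here.

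Clusters were assigned to GENCODE M21 genes by their centre, and to parts of the gene by basic transcripts, the 3′UTR before the CDS, the 5′UTR, non-coding exons and introns. Peaks have at least 2 in both values, and overlap means at least 1 shared base. Library sizes and read counts were recovered as the whole numbers that give the deposited values, and a single solution was found for 98.6% (replicate 1) and 98.7% (replicate 2) of the members' clusters whose −log10(P value) was above 0 and under 400. Fold change intervals are exact 95% intervals of the read ratio. Shares of peaks by part of the gene have Wilson intervals, which take peaks as independent. No test was made across the members. Python 3.11.15 with numpy 2.4.6, pandas 2.3.3, scipy 1.17.1 and matplotlib 3.10.9 was used, and the scripts were tested on simulated data.

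Genes named are those with a peak in both replicates, up to 12 genes with overlapping peaks ranked by the smaller of the replicates' highest fold changes (with full values), the 5 with most clusters, those with a peak in 1 replicate, those with no cluster and all genes of the role lists. Alternatives were thresholds of 3, a fold change threshold of 1 on the log2 scale, P values adjusted by Benjamini-Hochberg over each table, at least 10 IP reads, any overlap with the gene, no other gene on the strand, an overlap of 50%, CDS before 3′UTR and either replicate by itself. Leaving out the 3 genes with most peaks was chosen after seeing the data.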

Additional observations from a re-analysis of the deposited data

How the results depend on the processing

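Of 47 alternative values for the 6 results, 33 stayed within 1.5 times the count or within the 95% interval of the share, and 14 did not. With thresholds of 3 for both values, peaks fell to 25 in each replicate, genes with a peak in both replicates to 8, genes with overlapping peaks to 4 (Lrrc46, Lrrc52, Lrrc61 and Lrrc8b), and the 3′UTR share rose to 48% in both replicates. A log2(fold change) of at least 1 gave 161 peaks in replicate 1. At least 10 IP reads left 82 peaks in replicate 2. Without Lrrc8b, Lrrc63 and Lrrc46, a choice made after seeing the data, replicate 1 had 50 peaks, and the 3′UTR share was 56% in replicate 1 and 36.6% in replicate 2. With 1 replicate left out, the count of genes with a peak ran from 25 (without replicate 2) to 35 (without replicate 1), in place of 23 with a peak in both and of 13 with overlapping peaks, since a single replicate sets no second condition. With adjusted P values 78 and 127 peaks, 19 genes with a peak in both replicates (without Lrrc8a, Lrrc29, Lrrc36 and Lrrc74a) and 11 with overlapping peaks (without Lrrc8a and Lrrc41) remained. The causes of the other shifts were not tested. No paired analysis was possible because each deposited value already compares the IP with the SMInput of its own replicate, so there is no test over samples to block. With 2 replicates and a median of 22 and 12 IP reads in a peak, a difference between replicates at a site was detectable only where the intervals were narrow.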
